A study of Mus musculus with 12 samples.

Results

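The lymphocyte genes of the mouse proximal colon were compared between mice with and without epithelial EPR, a long noncoding RNA that the count table lists as Smim31. The group held 45 genes of T cells, natural killer (NK) cells and innate lymphoid cells, chosen as a list of gene symbols. All 45 had a row among the 55376 genes of the table, and 36 passed the low-count filter of a CPM (count scaled to the library total) of at least 1 in at least 4 libraries. The 9 that did not pass were Cd27, Ctla4, Il2ra, Klrb1c, Foxp3, Gata3, Il17a, Il22 and Ifng, and these are given by their counts.

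Total RNA was sequenced from the proximal colon of 12 mice aged 12 weeks, with 1 library per mouse. The 6 EPR fl/fl mice carried loxP sites flanking the EPR promoter and exon 1 and served as controls. The 6 EPR cKO mice carried the same alleles together with the CDX2P-NLS Cre transgene, whose human CDX2 promoter drives Cre in epithelial cells of the large bowel and the end of the small bowel. All mice were on a C57BL/6 background, and the labels gave no sex. The tissue was frozen whole, so that lymphocyte RNA made up a small share of each library next to RNA of epithelium, muscle, vessels and fat. In such bulk samples, fewer cells of a type and less RNA per cell cannot be told apart.

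The colon wall holds lymphocytes in the epithelial layer, in the lamina propria and in small follicles. T cells recognise antigen through a receptor of alpha and beta or gamma and delta chains, which signals through the CD3 chains and the kinases Lck and Zap70, and the coreceptors CD4 and CD8 bind the class of antigen-presenting molecule. Intraepithelial T cells of the gut often carry CD8 as a pair of alpha chains and store granzymes, NK cells kill without an antigen receptor, and innate lymphoid cells make cytokines such as IL-22 without one. The study also stained colon sections for CD4 and CD8A, and the comparison here asks whether the RNA of these and other lymphocyte genes differed between the groups.

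Library totals ran from 13093904 to 33211041 assigned counts, with similar group means (two-sided exact permutation test, p = 0.981). EPR was counted 297 to 1474 times in EPR fl/fl libraries and 0 to 10 times in EPR cKO libraries, at 39.4 ± 14.5 and 0.132 ± 0.151 CPM (SD, n = 6), a log2 fold change of -8.09 (edgeR adjusted p = 1.61e-06, SE 0.47). The epithelial markers, led by Krt8 and Krt19, summed to 8831 to 15778 CPM over all libraries. The share of muscle differed within and between the groups: 10 smooth muscle genes summed to 3157 to 5535 CPM in EPR fl/fl, to 9454 CPM in EPR cKO 1 and to 1054 to 2767 CPM in the other EPR cKO libraries. EPR cKO 1 therefore stood apart, and results that rest on it are given with and without it.

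Per kilobase of exon, the levels of the members spread widely in EPR fl/fl colon. Ccl5, a chemokine of effector lymphocytes, was listed at 34.1 ± 24.0 CPM per kb, and the granzyme Gzma, a protease of cytotoxic granules, at 24.9 ± 19.8 (SD, n = 6). Next were Gzmb, also a granzyme, at 11.3 ± 11.8 CPM per kb and the pan-leukocyte phosphatase Ptprc (CD45) at 10.1 ± 3.36. Each of these 4 differed from the next by less than the larger of their SDs. T cell receptor constant genes lay lower, with Trbc2 at 6.93 ± 3.61, Trac at 5.77 ± 2.38 and Tcrg-C1 at 1.83 ± 1.01 CPM per kb, and Cd3g stood at 5.63 ± 2.69. At the low end, Foxp3, the factor of regulatory T cells, was at 0.0506 ± 0.0323 CPM per kb, Il22 had no count in EPR fl/fl, and Il17a had no count in any library.

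**Figure D1:**
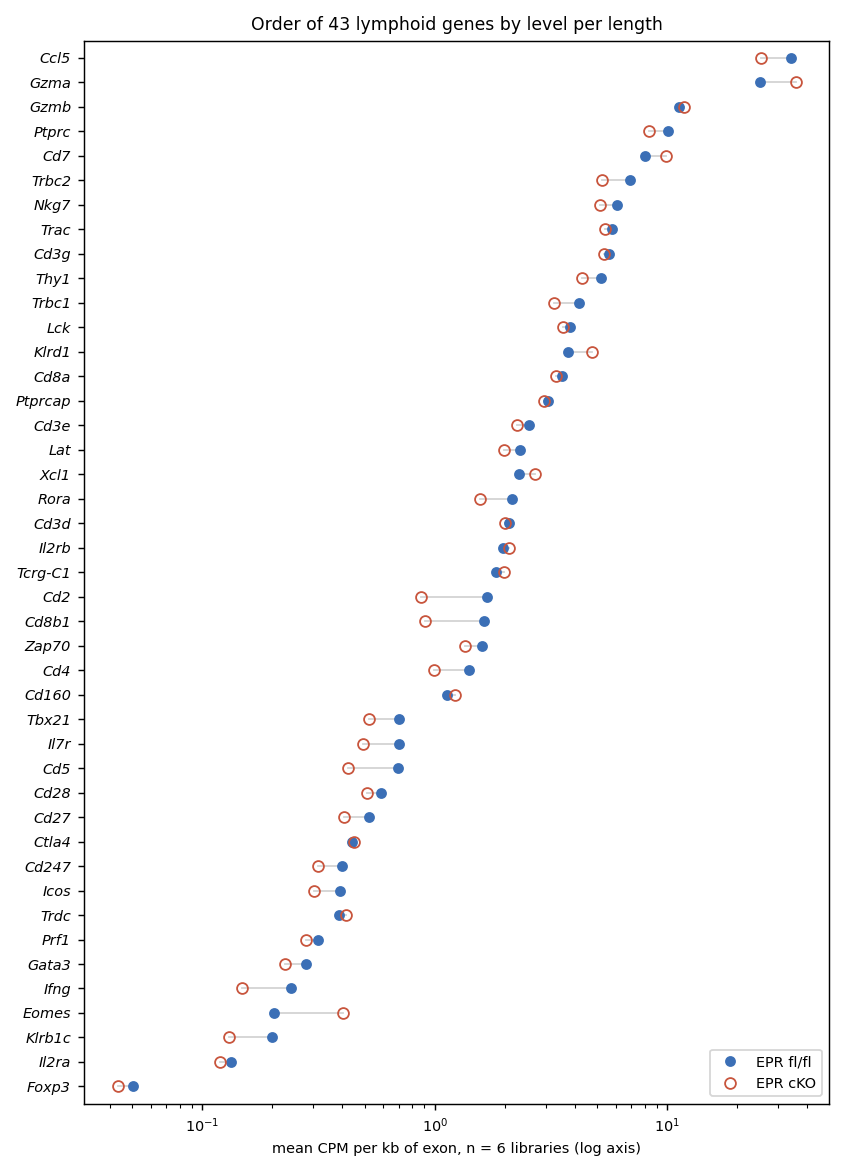
Mean level of the members per kilobase of exon (CPM per kb, log axis) in both groups. Filled circles are EPR fl/fl means and open circles EPR cKO means over 6 libraries, joined by a line for each gene and ordered from Ccl5 (34.1 CPM per kb in EPR fl/fl) down to Foxp3 (0.0506). Il17a and Il22 are left out.

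No tested member passed the test between EPR cKO and EPR fl/fl. The quasi-likelihood test of edgeR called 0 of 36 at an adjusted p under 0.05, where it called 2.46% of all 15952 tested genes (1.57% in the direction of lower levels and 0.884% of higher). With no adjustment, 2 members were under 0.05, Cd2 and Eomes, against 18.3% of all tested genes. The count by DESeq2 was also 0, where it called 5.72% of all genes. Limma-voom with quality weights called 2, Rora and Eomes, where it called 20.5% of all genes. At the stricter thresholds of the study's methods the count was 0, against 0.169% of all tested genes. The 6 libraries of one group did not lie wholly above the 6 of the other for any of the 36, which they did for 2.47% of all tested genes.

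The log2 fold change was negative for 26 tested members and positive for 10, with a median of -0.18, while the median over all tested genes was 0.02. The direction depended on the method: limma-voom with quality weights gave 11 negative and 25 positive estimates, with a median of 0.13. Adjusted p-values of the members ran from 0.0990 to 0.969. The median SE of a member was 0.35 on the log2 scale, against 0.14 over all tested genes. The 95% interval excluded a doubling for 30 of 36 members and a halving for 22, and it excluded both for 18.

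Single libraries decided part of this picture. Without EPR cKO 1, 4 members were called, where 21.8% of all genes were: Cd2 at -0.89 (adjusted p = 0.0432, SE 0.29), Thy1 at -0.72 (adjusted p = 0.0235, SE 0.20), Rora at -1.002 (adjusted p = 0.00159, SE 0.15) and Eomes at 1.27 (adjusted p = 0.0458, SE 0.42). Without EPR fl/fl 2, Cd2 was called (adjusted p = 0.0234), where 2.22% of all genes were, and the median of the members was -0.33, against -0.18 with all libraries. Without EPR fl/fl 6 the median was 0.04, with 14 of 35 tested members lower. Leaving out any other library gave no call.

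**Figure D2:**
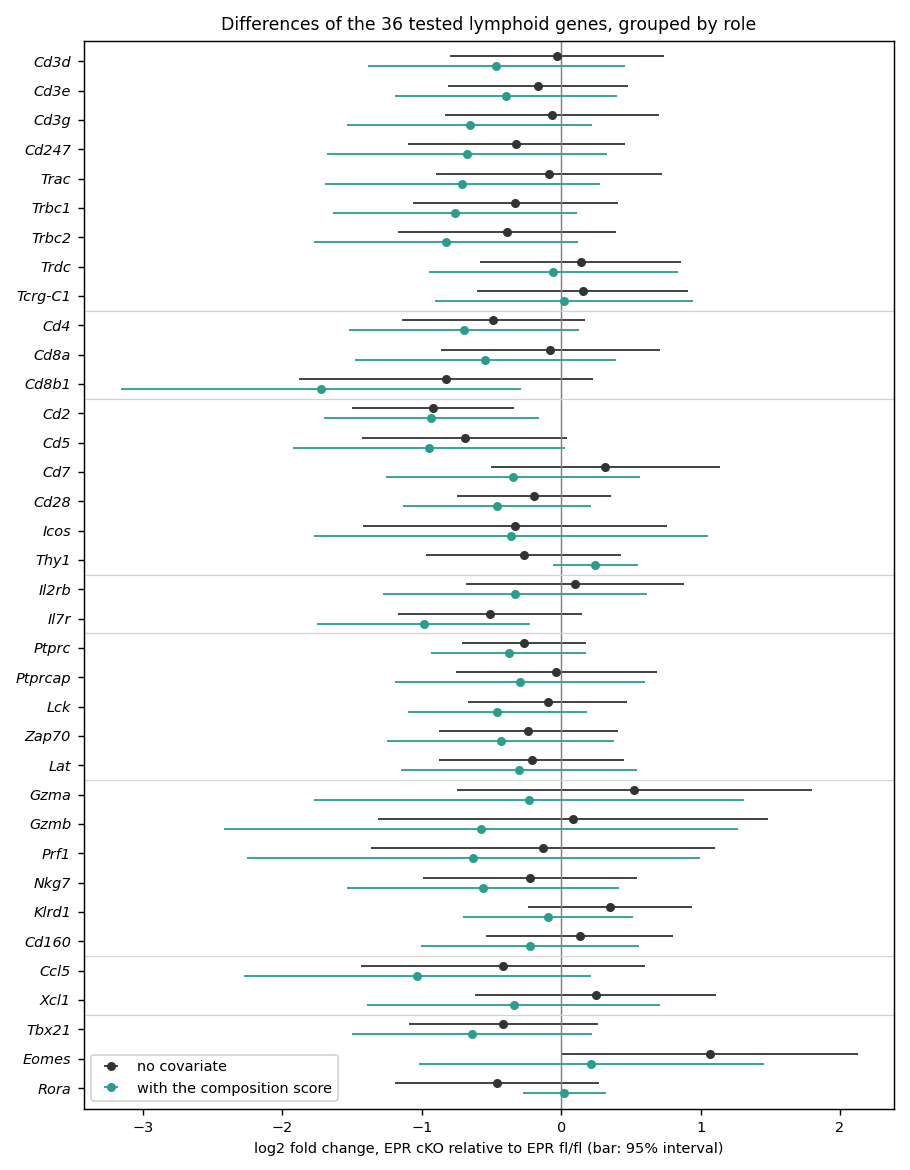
Log2 fold change of each tested member, EPR cKO against EPR fl/fl, with its 95% interval, in the fit without a covariate and in the fit with the tissue composition score. Black marks the fit without a covariate and green the fit with the score, and the lines separate the roles. Without a covariate 26 of 36 estimates lie below 0, Cd2 has the most negative value (-0.92) and Eomes the most positive (1.07).

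The receptor and CD3 chains define T cells. All 9 were tested, 7 had a negative and 2 a positive log2 fold change, with a median of -0.09, and none passed the test. Cd3e, the CD3 epsilon chain, ran from 1.75 through a median of 3.70 to 6.33 CPM in EPR fl/fl, and from 2.20 through 3.39 to 4.04 CPM in EPR cKO. The EPR cKO libraries lay inside the range of the controls, and the log2 fold change was -0.17 (adjusted p = 0.775, SE 0.30, 95% interval -0.81 to 0.48). Cd3d, the delta chain, was at 3.37 ± 1.66 and 3.26 ± 1.19 CPM in controls and EPR cKO, a log2 fold change of -0.03 (adjusted p = 0.969, SE 0.35). Cd3g, the gamma chain, was at 5.76 ± 2.75 and 5.45 ± 2.14 CPM, with -0.07 (adjusted p = 0.930, SE 0.36).

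Cd3d and Cd3g had the same lowest and highest mice. Among controls, both were lowest in library 2 and highest in library 6, and in EPR cKO they were lowest in library 1 and highest in library 6. This was not particular to the pair. The same libraries held these places for Ptprc, Trac, Lck, Il2rb, Nkg7, Gzma and Gzmb, which lie on other chromosomes. Cd3d and Cd3g lie head to head on chromosome 9 (mm10), with Cd3g on the minus strand at chr9:44969572-44980431 and Cd3d on the plus strand at chr9:44981786-44987339, 1354 bases between their starts. Their upstream windows are printed because both hold a T-box motif (AGGTGT, or ACACCT on the other strand, in capitals), the motif of the factors T-bet and Eomes that are themselves members. Sequences are the 250 bases before each start from RefSeq (GRCm38.p6), 5′ to 3′ on the strand of the gene.
Cd3d (chr9:44981536-44981785, plus strand): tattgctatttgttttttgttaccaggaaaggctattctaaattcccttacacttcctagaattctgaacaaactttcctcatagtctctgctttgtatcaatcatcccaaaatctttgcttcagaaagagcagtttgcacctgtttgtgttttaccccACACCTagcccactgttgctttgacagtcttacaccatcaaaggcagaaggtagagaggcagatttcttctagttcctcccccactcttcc
Cd3g (chr9:44980432-44980681, minus strand): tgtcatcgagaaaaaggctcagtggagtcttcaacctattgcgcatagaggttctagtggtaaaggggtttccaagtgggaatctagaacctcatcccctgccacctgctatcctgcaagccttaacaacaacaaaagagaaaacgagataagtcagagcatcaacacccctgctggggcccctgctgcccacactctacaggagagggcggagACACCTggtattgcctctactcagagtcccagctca
Of the 45 members, 29 matched the copy of the RefSeq promoters used here, with 35 windows. Not analysed here were the windows of Ccl5, Cd2, Cd28, Cd4, Cd7, Cd8b1, Icos, Il2rb, Klrd1, Ptprcap, Tcrg-C1, Thy1, Trac, Trbc1, Trbc2 and Trdc. The motif was in 10 of these 35 windows and in 11.8% of all 32851 windows of this length. A match is a description of letters and not a bound site.

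The alpha and beta constant genes carry the receptor of conventional T cells. Trac ran from 0.972 through 2.43 to 3.92 CPM in EPR fl/fl and from 0.824 through 2.41 to 3.45 CPM in EPR cKO, a log2 fold change of -0.09 (adjusted p = 0.915, SE 0.37, 95% interval -0.90 to 0.72). The groups overlapped over nearly their whole range. Trbc1 and Trbc2, the 2 beta constant genes, gave -0.33 (adjusted p = 0.620) and -0.39 (adjusted p = 0.580). These 2 share 40.5% and 44.0% of their 50-base exon stretches with other genes, most of all with each other. The split of reads between them is therefore uncertain. Cd247, the CD3 zeta chain, gave -0.32 (adjusted p = 0.645), and 64.0% of its exon bases lie over the antisense gene Pou2f1, whose reads cannot be told apart if the counting ignored strand.

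The gamma and delta constant genes mark the other class of T cell, which is common in gut epithelium. Trdc ran from 0.696 through 1.53 to 2.47 CPM in EPR fl/fl and from 1.16 through 1.32 to 2.80 CPM in EPR cKO, a log2 fold change of 0.14 (adjusted p = 0.839, SE 0.33, 95% interval -0.58 to 0.86). The highest value belonged to EPR cKO 5 and lay above all controls. Tcrg-C1 gave 0.15 (adjusted p = 0.829, SE 0.35), and it shares 34.2% of its 50-base stretches with other genes, most of all with Tcrg-C3. The log2 ratio of Trdc to Trac counts was -0.68 ± 0.43 in the controls and -0.37 ± 0.82 in EPR cKO, closer together than the SD of either group, and was not tested.

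The coreceptors had negative log2 fold changes for all 3 genes, with a median of -0.49, and none passed the test. Cd4, the coreceptor of helper and regulatory T cells that macrophages also carry at low levels, ran from 2.18 through 3.76 to 8.90 CPM in EPR fl/fl and from 2.03 through 2.96 to 4.14 CPM in EPR cKO. EPR fl/fl 6 was the highest and the other 11 libraries lay between 2.03 and 4.45 CPM. The log2 fold change was -0.49 (adjusted p = 0.407, SE 0.30, 95% interval -1.14 to 0.17). Cd8a ran from 2.92 through 11.2 to 17.9 CPM in EPR fl/fl and from 5.71 through 10.8 to 15.9 CPM in EPR cKO. All EPR cKO values lay within the control range, with -0.08 (adjusted p = 0.924, SE 0.37, 95% interval -0.86 to 0.71).

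Cd8b1 encodes the beta chain that conventional CD8 T cells pair with Cd8a and that many intraepithelial lymphocytes lack. It ran from 0.551 through 2.56 to 4.02 CPM in EPR fl/fl and from 0.220 through 1.31 to 2.85 CPM in EPR cKO. The 6 controls and 6 EPR cKO libraries overlapped, and the log2 fold change was -0.83 (adjusted p = 0.383, SE 0.49, 95% interval -1.88 to 0.23). The log2 ratio of Cd8b1 to Cd8a counts was -2.18 ± 0.44 in the controls and -3.16 ± 0.85 in EPR cKO, a description with no test. That of Cd4 to Cd8a was -1.27 ± 0.99 and -1.70 ± 0.45. Per length, Cd8a stood at 3.53 ± 1.75 CPM per kb in EPR fl/fl and Cd4 at 1.40 ± 0.763.

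**Figure D3:**
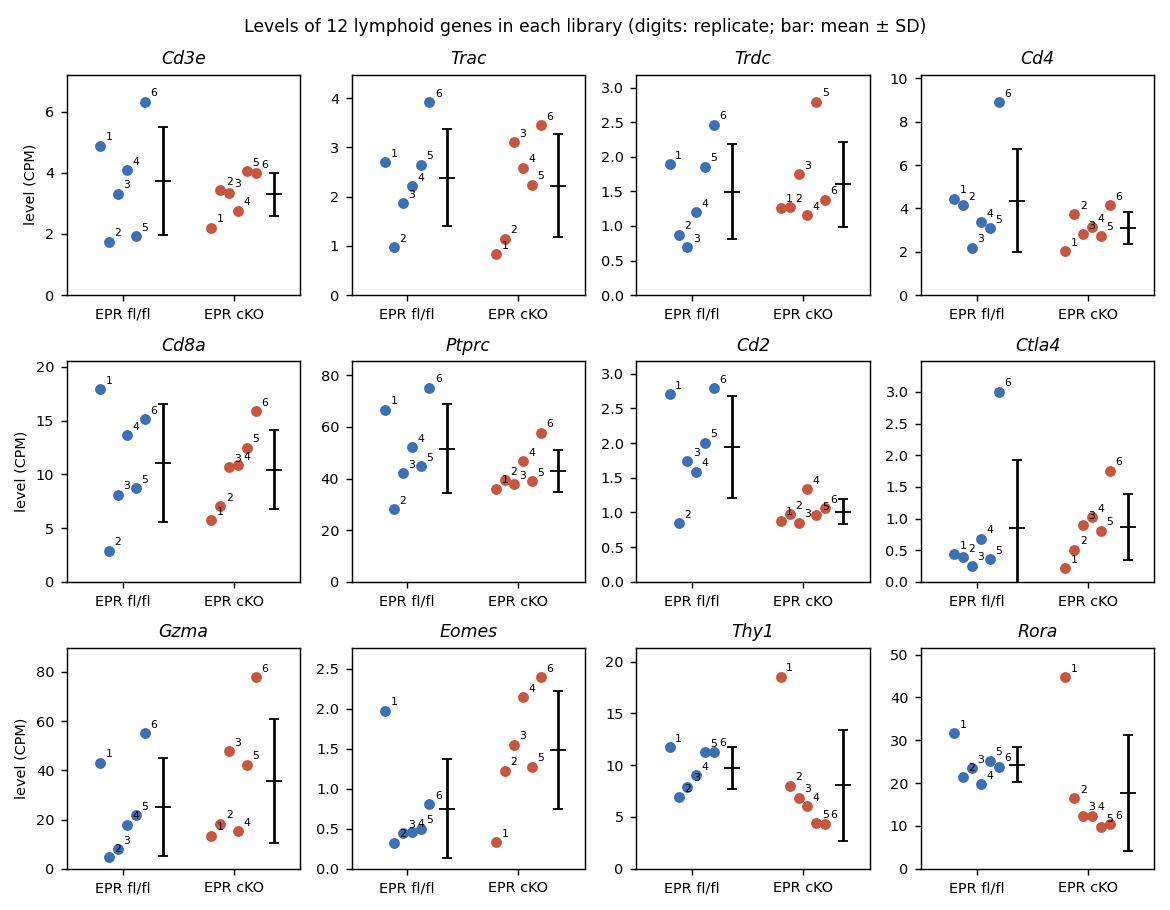
CPM of 12 members in each library, EPR fl/fl in blue and EPR cKO in red, with the replicate number beside each point and the group mean ± SD as a bar (for Ctla4 in EPR fl/fl the bar is clipped at 0). Cd2 in EPR cKO stays between 0.850 and 1.34 CPM, Cd4 and Ctla4 are highest in EPR fl/fl 6 (8.90 and 3.00 CPM), and Rora and Thy1 are highest in EPR cKO 1 (44.8 and 18.6 CPM).

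Adhesion and costimulatory molecules hold T cells to their partners and set the strength of the response. Of the 6 tested, 5 had a negative log2 fold change, with a median of -0.30, and none passed the adjusted test. Cd2, an adhesion receptor of T and NK cells, ran from 0.843 through 1.87 to 2.79 CPM in EPR fl/fl and from 0.850 through 0.968 to 1.34 CPM in EPR cKO. Of the controls, 5 lay above every EPR cKO library and EPR fl/fl 2 lay below all of them. The log2 fold change was -0.92 (SE 0.27, 95% interval -1.50 to -0.34), with an unadjusted p of 0.00467 and an adjusted p of 0.0990 over all tested genes by edgeR.

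Cd5, a damper of receptor signalling, was likewise lowest in EPR fl/fl 2 among the controls, at 0.583 CPM, and highest in EPR fl/fl 6, at 3.54 CPM. Its EPR cKO range was 0.769 to 1.65 CPM and its log2 fold change -0.69 (adjusted p = 0.301, SE 0.34). Cd7, carried by T cells and NK cells, was at 7.88 ± 3.41 and 9.73 ± 4.85 CPM, with 0.32 (adjusted p = 0.670, SE 0.38). The costimulatory receptors Cd28 and Icos gave -0.19 (adjusted p = 0.699) and -0.33 (adjusted p = 0.735). In both, EPR fl/fl 6 was far above the other controls, at 4.67 CPM for Cd28, where the others lay between 1.93 and 2.41, and at 4.13 CPM for Icos, where they lay between 0.486 and 1.39.

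Thy1, a surface protein of T cells and innate lymphoid cells that stromal and nerve cells also carry, ran from 6.94 through 10.1 to 11.8 CPM in EPR fl/fl and from 4.35 through 6.45 to 18.6 CPM in EPR cKO. The highest value was that of EPR cKO 1, the library with the most smooth muscle RNA. With all libraries the log2 fold change was -0.27 (adjusted p = 0.670, SE 0.32).

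Cytokine receptors of the group were Il2rb, shared by IL-2 and IL-15 signalling, Il7r, which sustains naive and memory cells and innate lymphoid cells, and the low-count Il2ra. Il2rb was at 8.42 ± 4.59 CPM in the controls and 8.97 ± 4.11 in EPR cKO, with a log2 fold change of 0.10 (adjusted p = 0.899, SE 0.36). Il7r was at 2.48 ± 0.708 CPM and at 1.75 ± 0.825 CPM. Its groups overlapped, with -0.51 (adjusted p = 0.389, SE 0.30, 95% interval -1.17 to 0.15).

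The proximal signalling genes all had negative log2 fold changes, with a median of -0.21 over 5, and none passed the test. Ptprc, which all leukocytes carry, ran from 28.1 through 48.5 to 75.2 CPM in EPR fl/fl and from 36.1 through 39.2 to 57.7 CPM in EPR cKO. The EPR cKO libraries lay within the control range, with -0.26 (adjusted p = 0.507, SE 0.21, 95% interval -0.71 to 0.18). The kinase Lck gave -0.10 (adjusted p = 0.858, SE 0.26), Zap70 gave -0.23 (adjusted p = 0.687, SE 0.30) and the adaptor Lat gave -0.21 (adjusted p = 0.725, SE 0.31). Ptprcap, a CD45 partner, gave -0.04 (adjusted p = 0.961), and antisense Rps6kb2 covers 100% of its exon bases, so its count is uncertain where strand was not used.

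Of the 6 tested cytotoxic and NK genes, 4 had a positive log2 fold change, with a median of 0.11, and none passed the test. With the composition score described further on, all 6 were negative, with a median of -0.40. Without EPR cKO 1, that fit gave 0.10 for Gzmb, -0.03 for Gzma, -0.04 for Nkg7 and -0.09 for Klrd1. Prf1 stood at -0.34 and Cd160 at -0.47. Gzma ran from 4.73 through 19.9 to 55.0 CPM in EPR fl/fl and from 13.4 through 30.3 to 77.8 CPM in EPR cKO. Both groups spread over several-fold, and the log2 fold change of 0.52 had an SE of 0.59 (adjusted p = 0.648), with a 95% interval from 0.596-fold to 3.47-fold. Gzmb ran from 2.04 through 10.8 to 48.1 CPM and from 6.15 through 14.5 to 36.3 CPM, a log2 fold change of 0.08 (adjusted p = 0.954, SE 0.65). For both granzymes EPR fl/fl 2 was the lowest control and EPR fl/fl 6 the highest, and EPR cKO 1 and EPR cKO 6 held these places among the EPR cKO libraries.

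The windows of Gzma and Gzmb are shown because these were the most abundant cytotoxic members per length and both hold the core of the RUNX motif (TGTGGT, or ACCACA on the other strand, in capitals). Gzma also holds the T-box motif, in capitals as ACACCT. As above, these are the 250 bases before the RefSeq start (GRCm38.p6), 5′ to 3′ on the strand of the gene.
Gzma (chr13:113100982-113101231, minus strand): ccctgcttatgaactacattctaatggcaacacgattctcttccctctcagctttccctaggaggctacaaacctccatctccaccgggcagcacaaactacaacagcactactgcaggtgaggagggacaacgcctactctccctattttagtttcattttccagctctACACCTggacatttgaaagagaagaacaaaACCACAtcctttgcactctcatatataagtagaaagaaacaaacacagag
Gzmb (chr14:56262335-56262584, minus strand): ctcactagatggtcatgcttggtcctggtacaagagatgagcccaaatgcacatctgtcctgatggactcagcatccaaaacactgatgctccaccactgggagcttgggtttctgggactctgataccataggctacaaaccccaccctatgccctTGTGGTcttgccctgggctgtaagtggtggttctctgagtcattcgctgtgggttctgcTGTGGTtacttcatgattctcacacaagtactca
The RUNX core was in 11 of 35 member windows and in 14.0% of all 32851. Beside the granzymes, the members with it were Cd160, Il17a, Klrb1c, Lck, Nkg7, Prf1, Xcl1 and Zap70. The T-box motif was found beside Cd3d, Cd3g and Gzma in Cd3e, Cd5, Ctla4, Il22, Il2ra, Nkg7 and Prf1.

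The other cytotoxic genes were lower in abundance. Prf1, the pore-forming protein of the granules, ran from 0.130 to 1.98 CPM in EPR fl/fl and from 0.329 to 1.06 CPM in EPR cKO, with -0.13 (adjusted p = 0.915, SE 0.57). Nkg7, a granule protein of cytotoxic cells, gave -0.22 (adjusted p = 0.747, SE 0.36). Klrd1 (CD94), an NK receptor chain, was at 3.62 ± 1.33 and 4.56 ± 1.33 CPM, with 0.35 (adjusted p = 0.507, SE 0.27). Cd160, a receptor of intraepithelial and NK cells, gave 0.13 (adjusted p = 0.836, SE 0.31).

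Of the chemokines, Ccl5 ran from 4.15 through 15.5 to 38.5 CPM in EPR fl/fl and from 6.64 through 13.7 to 22.5 CPM in EPR cKO, a log2 fold change of -0.41 (adjusted p = 0.651, SE 0.47). Xcl1, which attracts a class of dendritic cell, gave 0.25 (adjusted p = 0.752, SE 0.40). The EPR cKO range of Ccl5 lay inside that of the controls. Measured against a T cell gene, the log2 ratio of Gzma to Cd3e counts was 2.42 ± 0.95 in the controls and 3.16 ± 0.79 in EPR cKO, a description with no test.

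The transcription factors included the widest positive difference of the group. Eomes, a T-box factor of NK cells and memory CD8 T cells, ran from 0.324 through 0.477 to 1.97 CPM in EPR fl/fl and from 0.329 through 1.41 to 2.39 CPM in EPR cKO. EPR fl/fl 1 was the highest control and EPR cKO 1 the lowest EPR cKO library, each within the range of the other group, and the other 5 libraries of each group did not overlap. The log2 fold change was 1.07 (SE 0.49, 95% interval 0.01 to 2.13), with an unadjusted p of 0.0490 and an adjusted p of 0.273 by edgeR.

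Tbx21 (T-bet), the T-box factor of type 1 responses, was at 1.75 ± 0.703 and 1.29 ± 0.409 CPM, with -0.42 (adjusted p = 0.494, SE 0.31). Rora, needed by innate lymphoid cells and also used by stromal and muscle cells, ran from 19.7 through 23.7 to 31.7 CPM in EPR fl/fl and from 9.70 through 12.3 to 44.8 CPM in EPR cKO. All EPR cKO libraries but one lay below every control, and EPR cKO 1 lay above all of them. The log2 fold change with all libraries was -0.46 (adjusted p = 0.485, SE 0.34).

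The 9 low members were read from few counts. Foxp3 had 2 to 9 counts in EPR fl/fl libraries and 1 to 9 in EPR cKO, or 0.190 and 0.183 CPM pooled over the unscaled totals of each group. Ctla4, a brake on T cells that is abundant in regulatory cells, had 5 to 56 and 4 to 33 counts, the 56 in EPR fl/fl 6. Cd27, a costimulatory receptor, had 7 to 32 and 8 to 26 counts. The receptors Il2ra (CD25) and Klrb1c (NK1.1) had 6 to 27 and 5 to 21 counts in EPR fl/fl and 6 to 20 and 3 to 23 in EPR cKO, and Gata3, the factor of type 2 cells, had 4 to 32 and 12 to 22.

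The fit without the low-count filter gave log2 fold changes of -0.34 for Cd27 (adjusted p = 0.708), 0.01 for Ctla4 (adjusted p = 1.000), -0.20 for Il2ra (adjusted p = 0.799), -0.51 for Klrb1c (adjusted p = 0.606), -0.34 for Gata3 (adjusted p = 0.647), -0.12 for Foxp3 (adjusted p = 0.947) and -0.61 for Ifng (adjusted p = 0.665). In that fit edgeR called 0 of the 44 members that had a count, against 0.809% of all 36694 genes. The SE of these estimates ran from 0.31 for Il2ra, whose 95% interval of -0.85 to 0.46 excluded a doubling and a halving, to 0.67 for Ifng. Antisense genes cover 14.4% of the exon bases of Foxp3, and among the tested members 18.7% of those of Xcl1 and 12.4% of those of Cd7, so these counts are uncertain where strand was not used. Genes on the same strand cover 20.6% of the exon bases of Ifng (Gm49751), 15.7% of those of Klrb1c (Gm44511) and 9.17% of those of Foxp3 (Flicr). These counts are uncertain also where strand was used.

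The effector cytokines had few counts or none. Ifng, the type 1 cytokine, had 1 to 16 counts in EPR fl/fl libraries and 0 to 8 in EPR cKO. Il22, which acts on the epithelium, had a single count, in EPR cKO 4. Il17a, the cytokine of type 17 cells, had 0 counts in all 12 libraries, which allows a level, at 3 counts of the unscaled total, of up to 0.0903 to 0.229 CPM in a single library and up to 0.0219 CPM over the 6 libraries of either group. These limits cover counting error only. Reads of Il22 could also be split with other genes, with which it shares 41.0% of its 50-base stretches, most of all with Iltifb.

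The share of epithelium and muscle varied between the pieces of colon. A composition score, the mean log2 CPM of 12 epithelial genes minus that of 10 smooth muscle genes, was 1.24 ± 0.27 for the controls and 2.41 ± 1.30 for EPR cKO (SD, n = 6, two-sided exact permutation test, p = 0.0563). It ran from 0.98 to 1.69 in EPR fl/fl, while EPR cKO 1 had 0.04 and the other EPR cKO libraries 2.02 to 3.58. Without EPR cKO 1 the difference was 1.65 (p = 0.00216, exact permutation test), and the groups no longer overlapped.

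With this score as a covariate, 32 of 36 members had a negative log2 fold change and 4 a positive one, with a median of -0.46, where the median over all tested genes was 0.01. No member was called by edgeR, against 2.05% of all tested genes. An unadjusted p under 0.05 was listed for 3, against 15.1%: Cd2 at -0.93 (adjusted p = 0.227, SE 0.36), Cd8b1 at -1.72 (adjusted p = 0.231, SE 0.66) and Il7r at -0.98 (adjusted p = 0.194, SE 0.35). With all libraries, members whose sign depended on the score included Gzma at -0.23, Gzmb at -0.58, Cd7 at -0.34 and Il2rb at -0.33, positive without it. Thy1 at 0.24 and Rora at 0.02 were negative without it.

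Apart from EPR cKO 1, the score separated the groups, so genotype and tissue composition cannot be told apart in this fit. The receptor and CD3 chains had a median of -0.66 with the score, against -0.09 without it. Cd3e stood at -0.40 (adjusted p = 0.682), Trac at -0.71 (adjusted p = 0.513), Cd4 at -0.70 (adjusted p = 0.428) and Cd8a at -0.54 (adjusted p = 0.624), none of them past the test. Eomes stood at 0.22 (adjusted p = 0.906), against 1.07 without the score.

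These values rest in part on single libraries. Without EPR cKO 1, the fit with the score gave 29 negative estimates, with a median of -0.31, and called no member, where it called 0.0253% of all genes. In that fit Cd8b1 stood at -0.45 (adjusted p = 0.957), Trac at -0.12 (adjusted p = 0.983), Cd3e at -0.09 (adjusted p = 0.983), Cd4 at -0.34 (adjusted p = 0.946), Cd2 at -0.58 (adjusted p = 0.888) and Eomes at 0.92 (adjusted p = 0.870). Cd8a at -0.55 and Il7r at -0.93 lay close to their values with all libraries. The receptor and CD3 chains ran from -0.98 for Trbc2 to 0.09 for Cd247 in that fit. Gzma stood at -0.03, Gzmb at 0.10, Cd7 at -0.31 and Il2rb at -0.15, with Thy1 at 0.23 and Rora at -0.38. Gzmb and Rora thus kept the sign they had without the score. Without EPR fl/fl 2, 3 members were called with the score, Cd2, Cd8b1 and Cd5, where 2.28% of all genes were, and the median was -0.69.

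**Figure D4:**
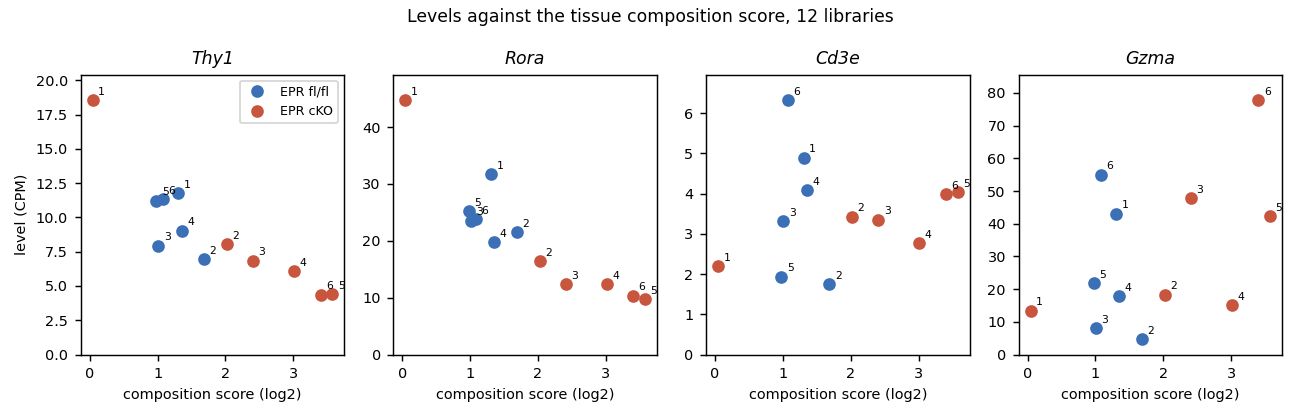
CPM of Thy1, Rora, Cd3e and Gzma against the tissue composition score (log2 units, epithelium minus smooth muscle) in the 12 libraries. EPR cKO 1 has the lowest score (0.04) and the highest Rora (44.8 CPM) and Thy1 (18.6 CPM), while the other EPR cKO libraries have scores of 2.02 to 3.58.

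Further lymphocyte genes outside the 45 were taken as 4 lists. Of 33 other T cell signalling genes, led by Malt1 and Cblb, 32 were tested and 29 had a negative log2 fold change, with a median of -0.28 and no call. Of the intraepithelial and tissue-resident lymphocyte list, 23 were tested, 15 negative, with a median of -0.07 and no call. Its most abundant genes, Tmigd1 and Btnl6, are expressed by the epithelium itself. The list also held other genes of the Btnl family, so its split and median do not describe lymphocytes alone. The naive and lymph node T cell list, led by Bcl11b and Ets1, had 11 tested genes, 10 of them negative, with a median of -0.17 and no call. The NK and innate lymphoid list had 17 tested genes, 8 positive and 9 negative, with a median of -0.02 and 1 call. For these 4 lists, the share called over all tested genes was 2.46%.

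That call was Kit, the stem cell factor receptor of innate lymphoid progenitors, which mast cells and the pacemaker cells of gut muscle also carry. Kit fell from 107 ± 28.5 CPM in EPR fl/fl to 45.2 ± 15.4 CPM in EPR cKO, a log2 fold change of -1.25 (edgeR adjusted p = 0.00740, SE 0.21). The groups did not overlap, as was so for 2.47% of all tested genes. With the score Kit stood at -0.94 (edgeR adjusted p = 0.0179). The other gene named from this list by abundance, Il1r1, was not called.

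Markers of other cells gave these values beside the lymphocyte genes. B cell genes, led by Ighm and Spib, summed to 24.1 to 54.3 CPM in EPR fl/fl and 22.1 to 58.9 CPM in EPR cKO, with 8 of 9 tested genes negative and a median of -0.10. Plasma cell genes, led by Igha and Jchain, summed to 749 to 1758 and 597 to 1968 CPM, with 5 of 8 positive. Follicle stroma genes, led by Ccl21a and Clu, were negative in 4 of 4, with a median of -0.56, and macrophage and dendritic cell genes, led by Lyz2 and Csf1r, in 13 of 13, with a median of -0.36. No gene of these lists was called by edgeR with all libraries, where 2.46% of all tested genes were. Ccl21a, Clu and Csf1r were each called lower in 1 fit that left out a library, and Ccl21a also with limma-voom weights (adjusted p = 0.0296). The part of follicles or of other leukocytes in the lymphocyte values was not tested.

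All 10 smooth muscle genes, led by Myh11 and Acta2, had negative log2 fold changes with a median of -0.54, as did 8 of 8 endothelial genes, led by Pecam1 and Kdr (-0.47), and 6 of 6 adipocyte genes, led by Adipoq and Fabp4 (-1.47). All 12 epithelial genes were positive, with a median of 0.24, and 5 of 8 colonocyte genes, led by Car1 and Guca2a, were positive. The 3 tested neutrophil and mast cell genes had a median of 1.92, and the list, led by the mast cell proteases Mcpt1 and Mcpt2, summed to 1.49 to 27.0 CPM in EPR fl/fl and 5.82 to 52.2 CPM in EPR cKO. None of these genes was called by edgeR with all libraries, and no gene of the lists was at 0 in all libraries. Limma-voom weights, with 20.5% of all genes called, called Krt8, Krt19, Guca2a, Mcpt1 and Mcpt2 higher. They called Myh11, Acta2, Pecam1, Fabp4 and Adipoq lower (adjusted p from 0.00672 to 0.0207 for all of these). Each of these genes was also called by edgeR in at least 1 fit that left out a library, while Kdr and Car1 were not. The part of tissue composition in the lymphocyte values was examined only through the score above.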

How the data were processed

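RNA-Seq of whole proximal colon was analysed for 12 mice, 6 EPR fl/fl and 6 EPR cKO, grouped by the sample labels. The authors made stranded total RNA libraries after removal of ribosomal RNA, sequenced them on a NovaSeq, trimmed reads with Trimmomatic, aligned them to mm10 with STAR 2.5.3a (version from the submitters' processing notes) and counted reads per Ensembl gene with featureCounts. The deposited values are raw counts, unnormalized and unfiltered, for 55376 genes, with totals of 13093904 to 33211041 per library. The use of strand and the handling of multimapped reads in counting are not given in the sources used here.

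Differential expression was tested here with edgeR 4.0.16 in R 4.3.3 (TMM scaling, quasi-likelihood F test, no covariate) on the 15952 genes with at least 1 CPM in at least 4 libraries, of 36694 with any count, and p-values were adjusted by Benjamini-Hochberg over all of them. CPM values were TMM-scaled unless stated otherwise, and intervals are 95%. Alternatives were DESeq2 1.42.0, limma-voom (limma 3.58.1), other scaling, no filter, the composition score as covariate, a replicate block and leaving out each library. The study names a Bayesian statistic without its package. The members and lists were chosen with earlier results of these data known. All 45 members were named, and from the other lists the called genes and the 2 most abundant. All 30 within-group pairs of libraries differed by more than sampling noise (smallest chi-square per gene 24.7), so each mouse counted once. Exon overlap was computed from GENCODE vM21, and scripts were tested on simulated data.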

Additional observations from a re-analysis of the deposited data

Results flagged for a closer look

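In each group of 6, the lowest or highest library was compared with its nearest neighbour by Dixon's ratio, at its 95% critical value. Of 91 sets (each member, EPR and the composition score in each group, where values varied), 11 had such a distant library, where chance gives about 1 in 20 sets, or 4.5 of these.

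EPR fl/fl 6 was the highest control, far from the others, for 4 T cell genes. It had 8.90 CPM for Cd4 (others 2.18 to 4.45), 4.67 for Cd28 (others 1.93 to 2.41), 4.13 for Icos (others 0.486 to 1.39) and 3.00 for Ctla4 (others 0.253 to 0.681). Without this mouse the median log2 fold change of the tested members was 0.04, against -0.18 with it.

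EPR cKO 1 was far above the other EPR cKO libraries for Thy1, at 18.6 CPM (others 4.35 to 8.04), and for Rora, at 44.8 CPM (others 9.70 to 16.4). Its summed smooth muscle level was 9454 CPM, where the other EPR cKO libraries had 1054 to 2767 CPM.

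The remaining distant libraries were single genes in single mice. EPR fl/fl 1 had 1.97 CPM of Eomes (others 0.324 to 0.805). EPR cKO 5 had 2.80 CPM of Trdc (others 1.16 to 1.75), EPR cKO 6 had 5.20 CPM of Ptprcap (others 1.87 to 3.00), and EPR cKO 4 had 0.0446 CPM of Il22, a single count, where the others had 0, so that the ratio takes its highest value by construction. EPR cKO 2 had 0.423 CPM of EPR (others 0 to 0.134). The causes were not tested.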

How the results depend on the processing

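The count of members called, 0 in each direction, stayed 0 with DESeq2 (5.72% of all genes called) and DESeq2 size factors (2.44%). It also stayed 0 with total-count scaling (1.79%), no filter (0.809%) and the replicate block (1.54%). It was 1 higher and 1 lower with limma-voom quality weights, and leaving out 1 library gave 0 to 1 higher and 0 to 3 lower, the calls coming without EPR cKO 1 and EPR fl/fl 2. With the composition score the range was 0 to 3. Other lymphoid genes, 0 higher and 1 lower, gave 1 higher and 7 lower with voom weights (20.5% of all genes called), 1 higher with the block (1.54%), and 0 to 1 higher and 1 to 9 lower on leaving out 1 library, the 9 without EPR cKO 1 (21.8%) and 2 without EPR cKO 2 (1.52%). The score difference, 1.17, ranged from 0.94 to 1.65. The labels do not say whether same-numbered mice were paired, and the main fit treated them as unpaired. Correlations of their deviations ran from -0.242 to 0.340, too few values to decide this. The replicate block gave 21 members lower and 15 higher. It turned the sign of Cd3d (0.052), Cd3g (0.00087), Cd8a (0.056), Icos (0.020), Prf1 (0.14) and Bcl11b (0.0080). Voom weights turned Cd3d (0.22), Cd3e (0.091), Cd3g (0.23), Cd247 (0.062), Trac (0.21), Cd8a (0.30), Cd28 (0.021), Icos (0.25), Ptprcap (0.16), Lck (0.088), Zap70 (0.065), Lat (0.11), Prf1 (0.58), Nkg7 (0.16), Ccl5 (0.11), Bcl11b (0.038) and Spib (0.043), with a member median of 0.13 against -0.18. The score turned Trdc (-0.058), Cd7 (-0.34), Thy1 (0.24), Il2rb (-0.33), Gzma (-0.23), Gzmb (-0.58), Klrd1 (-0.095), Cd160 (-0.22), Xcl1 (-0.34), Rora (0.023), Malt1 (-0.13), Cblb (0.0087), Igha (-0.20), Jchain (-0.25), Clu (0.049), Csf1r (0.0074), Myh11 (0.14), Pecam1 (0.11) and Kdr (0.15), of which Myh11 is one of the genes the score is built from. Leaving out 1 library turned Cd3d (-0.21 to 0.20), Cd3e (-0.32 to 0.049), Cd3g (-0.24 to 0.11), Cd247 (-0.48 to 0.037), Trac (-0.26 to 0.11), Trdc (-0.10 to 0.35), Tcrg-C1 (-0.047 to 0.43), Cd8a (-0.28 to 0.10), Cd28 (-0.29 to 0.062), Icos (-0.52 to 0.46), Il2rb (-0.15 to 0.41), Ptprcap (-0.31 to 0.19), Lck (-0.23 to 0.041), Gzmb (-0.28 to 0.82), Prf1 (-0.38 to 0.0022), Nkg7 (-0.41 to 0.020), Cd160 (-0.014 to 0.35), Bcl11b (-0.092 to 0.092) and Jchain (-0.082 to 0.18). None of these sign changes passed the test, and the causes were not tested. The part of depth in the SE of the members was not separated from the spread between mice.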
